A study of Mus musculus with 8 samples.

Results

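Tsc2, Eif4ebp1, Eif2s2, Ppp1r15a, Atf4, Atf5, Ddit3 and Asns are 8 genes that act on the rate of protein synthesis or respond when it is held back. They were followed in mouse lens RNA through all probe sets of the MG-U74Av2 chip that the annotation gives to them alone, which were 12 of 12488 probe sets, or 8 of 8251 genes that the chip measures by a probe set of their own. A probe set is a group of short oligonucleotides for 1 transcript, and its signal is a linear intensity that the authors scaled to a mean of 250 per array. Several of the genes were picked for their difference between 2 mouse strains in these same arrays, so their strain differences are given as a description, without a test. The effect of the connexin knockout was tested. Averaged over strains, it is arithmetically independent of the strain ratios, because every group has 2 arrays. Within 1 strain it shares arrays with those ratios, so the tests by strain may not be free of the choice.

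There were 8 arrays in 4 groups of 2, all of lenses from mice 10 days old of both sexes. Wild type (WT) and α3Cx46 knockout (KO) lenses were each taken on 2 backgrounds, 129SvJae and C57BL/6J. 129SvJae and C57BL/6J are inbred strains. α3Cx46, encoded by Gja3, is a gap junction subunit of lens fiber cells, and the KO mice carry a targeted disruption of this gene that is not confined to the lens. Each sample was RNA of 20 to 30 pooled lenses, and no source used here says whether the 2 samples of a group came from separate animals, so the spread behind the p-values may be technical. The authors chose mice of this age because their lenses do not yet show a cataract. In the paper the cataract follows the disruption of the connexin gene, and its severity depends on the strain background. The strain comparison therefore asks which transcripts differ between the strains, in WT and KO lenses, before a cataract is visible. The KO comparison asks which transcripts change without the connexin.

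TSC2 is the part of the tuberous sclerosis complex that switches off the small GTPase Rheb and thereby restrains the kinase mTORC1, a main driver of translation. In the integrated stress response, stress-sensed kinases phosphorylate the initiation factor eIF2, general translation slows, and a few messenger RNAs such as that of the transcription factor ATF4 are translated more. The lens fiber cell makes crystallin at a very high rate while it differentiates, and afterwards it loses its nucleus and lives with the proteins it has.

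The KO label was checked by Gja3, whose signal was between 445 and 519 in the KO arrays and between 1100 and 3381 in the WT arrays. Averaged over strains, the log2 ratio of KO over WT for Gja3 was -2.23 (SE 0.29, adjusted p = 0.016, limma). Prm1, which encodes the sperm protein protamine 1 and was the other probe set called for the KO effect, had signals between 1340 and 2167 in the KO arrays and of 14.5, 10.0 and 4.7 in 3 WT arrays, but of 387 in the library labelled 129SvJae WT replicate 1. That library also had the lowest Gja3 signal of the WT arrays, 1100, so both genes put it between the other WT arrays and the KO arrays, and results are also given without it. The authors hold the rise of Prm1 in KO lenses to be likely due to the knockout construct, which carried a protamine polyadenylation sequence. This was not tested here. On each array between 7637 and 8602 probe sets had a signal above 50, the level under which signals lie close to background. Detection calls were not used, so a signal above 50 does not by itself show that a transcript was detected. The arrays of replicate 1 shared a scan session, those of replicate 2 shared another apart from 129SvJae WT replicate 2, which was scanned alone, and a fluidics communication error is noted for C57BL/6J WT replicate 1. Summed signals of the lens fiber markers lay between 205156 and 389565 and those of the epithelium markers between 5494 and 6746, against 492 to 1529 for the retina markers.

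The lenses of the C57BL/6J mice had the higher signals of Tsc2, Ppp1r15a and Atf5, with averaged folds between 1.87 and 2.8, and the lower signals of Eif2s2 and Asns, with folds of 0.483 and 0.72 on their brighter probe sets. Of the 12 probe sets, 4 had all C57BL/6J arrays above all 129SvJae arrays, 2 had all of them below, and 6 overlapped. Of the 10078 probe sets tested, those whose mean passed a signal of 50 in any group, 2.95% lay wholly above, 2.62% wholly below and 5.57% on either side. All 12 probe sets passed this level, although 3 of them had an array under 50. The choice of genes used this strain contrast, so nothing is read from the members' counts. Without the library labelled 129SvJae WT replicate 1, the averaged log2 ratios were 1.10 and 1.21 for the 2 bright probe sets of Tsc2, 1.25 for Ppp1r15a, 0.90 for Atf5, -0.97 for Eif2s2 on 160365_at and -0.51 for Asns on 95133_at, and 0 of 12 probe sets were called for the KO effect in limma. In pooled whole lenses, fewer cells of a type and less RNA per cell cannot be told apart.

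**Figure D1:**
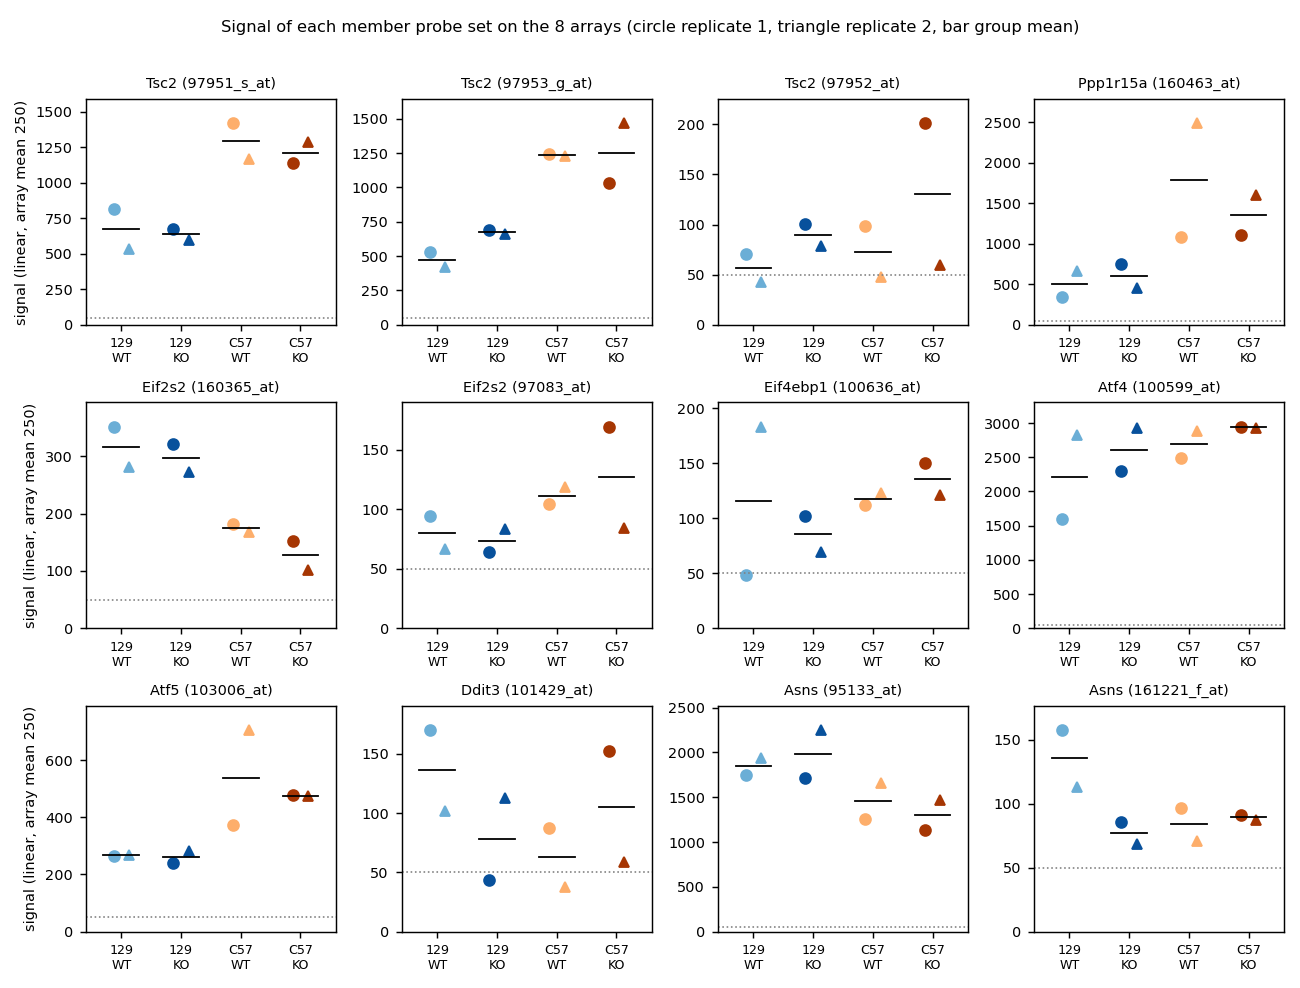
Signal (linear axis) of each of the 12 probe sets on the 8 arrays, by strain and genotype, with 1 point per array. The C57BL/6J arrays all lie above the 129SvJae arrays for 97951_s_at and 97953_g_at of Tsc2, for Ppp1r15a and for Atf5, and all below for 160365_at of Eif2s2 and 95133_at of Asns.

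Tsc2, the restraint on mTORC1, was measured by 3 probe sets. For 97951_s_at, the WT signals were 816 and 531 in 129SvJae lenses against 1418 and 1164 in C57BL/6J lenses, and the KO signals were 676 and 600.0 against 1135 and 1286, always for replicate 1 and then replicate 2. The lowest C57BL/6J array was thus above the highest 129SvJae array, while WT and KO overlapped within each strain. The log2 ratio of C57BL/6J over 129SvJae was 0.97 (SE 0.26) in WT lenses, 0.92 (SE 0.26) in KO lenses and 0.94 (SE 0.19, n = 4 against 4) averaged over genotypes, a fold of 1.93. For 97953_g_at, the WT signals were 527 and 422 in 129SvJae lenses against 1244 and 1226 in C57BL/6J lenses, and the KO signals were 689 and 665 against 1033 and 1468. This probe set separated the strains as well, with an averaged log2 ratio of 1.13 (SE 0.18), a fold of 2.18. The third probe set of the gene, 97952_at, was dim, with signals from 43.1 to 201, 2 of them under 50. Its strains overlapped and its averaged log2 ratio was 0.30 (SE 0.54), so no strain difference was detectable by it at this signal. The suffix _s marks probes that the maker flagged as shared with other sequences. 97953_g_at carries a letter too, and of the 3 only the dim 97952_at has none. Whether the 2 bright probe sets respond to Tsc2 alone was not tested.

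Tsc2 lies tail to tail with Pkd1, whose end overlaps it on the opposite strand, and head to head with Nthl1. Pkd1, chosen after its values were seen, had a log2 ratio between the strains of 0.67 (SE 0.33, adjusted p = 0.747, limma) and was not called. The probe set of Nthl1 did not reach the level for testing.

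Eif4ebp1 encodes 4E-BP1, which binds the cap-binding protein eIF4E until mTORC1 phosphorylates it, and is the other restraint of this arm. Its WT signals were 48.0 and 183 in 129SvJae lenses against 112 and 123 in C57BL/6J lenses, and the KO signals were 102 and 69.7 against 150.4 and 121. The 129SvJae WT replicates held the lowest and the highest of all 8 values, so no strain difference was detectable at this signal. The averaged log2 ratio was 0.50 (SE 0.47). It was 0.02 without the library labelled 129SvJae WT replicate 1 and 0.98 without the other 129SvJae WT array.

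Ppp1r15a encodes GADD34, the subunit that brings protein phosphatase 1 to eIF2 and so ends the stress response. The promoter of this gene is shown because its strain ratio was the highest of the members and because it holds a cAMP response element core, which ATF and CREB family proteins bind. The sequence is the 300 bases at chr7:45526219-45526518 of GRCm38.p6 from RefSeq, minus strand, from 250 bases before the transcription start, with the element in capitals.
Ppp1r15a: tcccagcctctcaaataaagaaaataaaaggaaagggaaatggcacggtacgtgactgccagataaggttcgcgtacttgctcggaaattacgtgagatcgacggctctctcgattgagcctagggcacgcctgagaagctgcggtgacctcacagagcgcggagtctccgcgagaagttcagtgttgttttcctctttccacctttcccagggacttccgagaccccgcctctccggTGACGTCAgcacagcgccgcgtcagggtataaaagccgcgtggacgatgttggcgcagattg
The core TGACGT was found on both strands there in overlapping matches, the first at position -12 from the start. It occurs in 7.51% of 32851 mouse promoter windows of this length.

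For Ppp1r15a, the WT signals were 346 and 659.6 in 129SvJae lenses against 1090.1 and 2491 in C57BL/6J lenses, and the KO signals were 747 and 461 against 1109 and 1604. The strains did not overlap, but the replicates of a group lay far apart, most of all in C57BL/6J WT. The log2 ratio was 1.79 (SE 0.41) in WT lenses, 1.18 (SE 0.41) in KO lenses and 1.49 (SE 0.29) averaged, a fold of 2.8. The WT ratio depended on the C57BL/6J arrays, with 1.19 when WT replicate 2 and 2.38 when WT replicate 1 of that strain was left out. Between arrays with the same genotype and replicate number the log2 ratio ran from 0.57, in KO replicate 1, to 1.92, in WT replicate 2.

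Eif2s2 encodes the β subunit of eIF2, the factor that delivers the initiator transfer RNA to the ribosome. For 160365_at, the WT signals were 352 and 282 in 129SvJae lenses against 182 and 168 in C57BL/6J lenses, and the KO signals were 321 and 273 against 152 and 102. All C57BL/6J arrays were below all 129SvJae arrays, and the averaged log2 ratio was -1.05 (SE 0.28), a fold of 0.483. The second probe set, 97083_at, went the other way at lower signals of 63.9 to 169, with an averaged log2 ratio of 0.60 (SE 0.44) and overlapping strains. The 2 probe sets of this gene therefore disagree, and the direction for the gene rests on the brighter one.

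**Figure D2:**
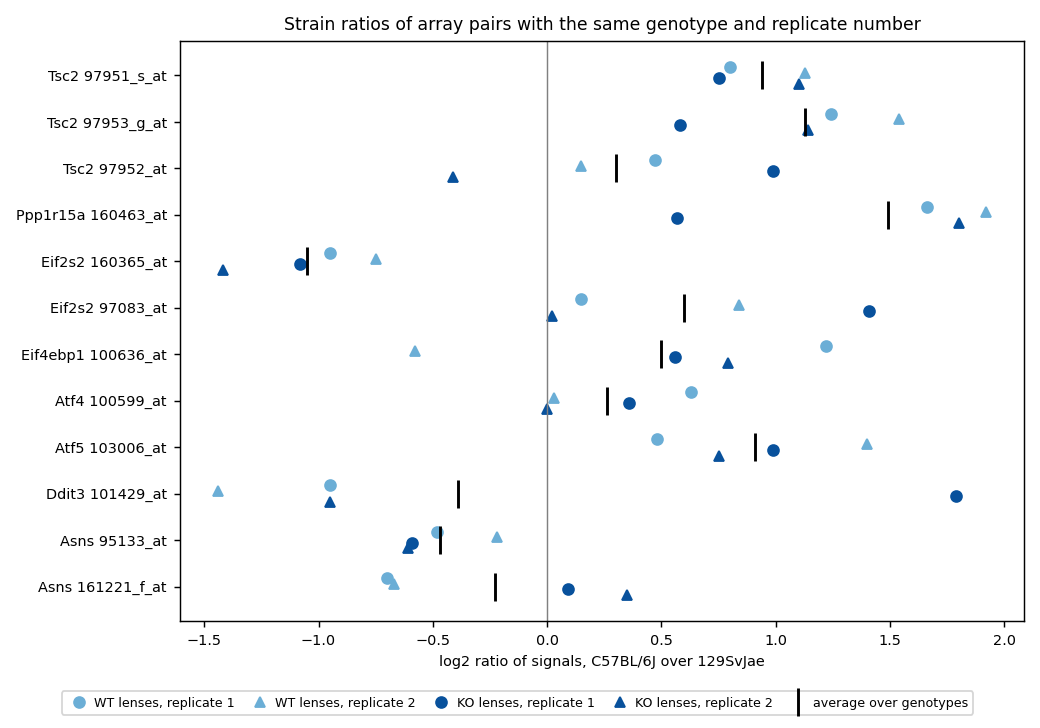
Log2 ratio of C57BL/6J over 129SvJae for each of the 12 probe sets, with 1 point for each pair of arrays of the same genotype and replicate number and a bar at the average over genotypes. The points spread from 0.57 to 1.92 for Ppp1r15a, from -1.42 to -0.75 for 160365_at of Eif2s2 and from -1.44 to 1.79 for Ddit3.

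Atf4, the transcription factor whose translation rises when eIF2 is phosphorylated, gave bright signals in every group. The WT signals were 1603 and 2829 in 129SvJae lenses against 2487 and 2892 in C57BL/6J lenses, and the KO signals were 2302 and 2922 against 2949 and 2931. The strains overlapped, and the library labelled 129SvJae WT replicate 1 was well below the other 7 arrays. The averaged log2 ratio was 0.26 (SE 0.18), and 0.05 without that array.

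Atf5, a transcription factor related to ATF4, is also translated more when eIF2 is phosphorylated. Its WT signals were 266 and 267 in 129SvJae lenses against 373 and 705 in C57BL/6J lenses, and the KO signals were 241 and 282 against 478 and 473. All C57BL/6J arrays were above all 129SvJae arrays, and the averaged log2 ratio was 0.91 (SE 0.25), a fold of 1.87. In WT lenses it was 0.94 (SE 0.35), close to the 0.87 (SE 0.35) of KO lenses.

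Ddit3 encodes CHOP, a factor of the late and often lethal phase of the response, and its signals were dim, from 37.7 to 170.2 with 2 arrays under 50. Its log2 ratio between the strains was -1.19 (SE 0.77) in WT lenses and 0.42 (SE 0.77) in KO lenses, and the pairs ran from -1.44 to 1.79. No strain difference was detectable for it at this signal.

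Asns encodes asparagine synthetase, a target of ATF4, and its promoter is shown because it holds the composite element that ATF4 and C/EBP proteins bind (TGATGNAA). The sequence is the 300 bases at chr6:7693160-7693459 of GRCm38.p6 from RefSeq, minus strand, with the same span around the start and the element in capitals.
Asns: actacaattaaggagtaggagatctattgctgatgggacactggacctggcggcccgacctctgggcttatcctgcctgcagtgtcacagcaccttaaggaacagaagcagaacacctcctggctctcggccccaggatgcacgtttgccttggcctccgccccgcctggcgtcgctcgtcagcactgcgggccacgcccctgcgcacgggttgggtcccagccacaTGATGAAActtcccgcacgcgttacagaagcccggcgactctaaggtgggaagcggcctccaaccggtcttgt
The match starts at position -23. The motif occurs in 3.97% of the 32851 windows. Of the 8 genes, 7 had at least 1 window, 8 windows in all, and only that of Asns held this element and only that of Ppp1r15a the response element core. Both strands were searched, and the reference genome is that of C57BL/6J, so 129SvJae sequence was not analysed here.

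For Asns on 95133_at, the WT signals were 1748 and 1942 in 129SvJae lenses against 1257 and 1663 in C57BL/6J lenses, and the KO signals were 1711 and 2250.0 against 1139 and 1472. All C57BL/6J arrays were below all 129SvJae arrays, by a small margin between 1663 and 1711. The averaged log2 ratio was -0.47 (SE 0.17), a fold of 0.72, opposite in sign to that of Atf5. For Atf4, whose strains overlapped, no direction is read. The second probe set, 161221_f_at, was dim, from 68.9 to 158, with an averaged log2 ratio of -0.23 (SE 0.42) and overlapping strains. Its suffix _f marks probes shared within a sequence family, so this value is uncertain for the gene.

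For the 6 probe sets that separated the strains, the step in group means between the strains, whose place in the order follows from that choice, was 0.88 on the log2 scale for 97951_s_at and 0.86 for 97953_g_at of Tsc2, 1.18 for Ppp1r15a, 0.76 for 160365_at of Eif2s2, 0.84 for Atf5 and 0.35 for 95133_at of Asns. The pooled SD of replicates within groups was 0.26, 0.21, 0.62, 0.25, 0.34 and 0.24 in the same order. The steps between WT and KO within a strain were at most 0.52 for these 6 probe sets. Such neighbouring groups overlapped, except C57BL/6J KO and WT for Eif2s2 and 129SvJae WT and KO for 97953_g_at.

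None of the 8 genes passed the test for an effect of the knockout. Averaged over strains, 0 of 12 probe sets were called at an adjusted p under 0.05 (limma with Benjamini-Hochberg adjustment over all probe sets), and the lowest unadjusted p among them was 0.177. Over all probe sets 2 were called, or 0.0198%, and 307 had an unadjusted p under 0.05. In 129SvJae lenses 0 of 12 were called against 0% of all, and in C57BL/6J lenses 0 of 12 against 0.00992%. In each strain 0 of 12 had an unadjusted p under 0.05, where 314 of all 10078 had one in 129SvJae and 233 in C57BL/6J lenses. After the same adjustment the methods' t-test called 0 of 12, but also 0 of all 10078, not even Gja3 or Prm1. Its result thus says nothing about the members. No probe set of the 12 had all KO arrays on 1 side of all WT arrays, which 2.19% of all tested probe sets had, 0.972% above and 1.22% below. The median size of the KO effect was 0.08 on the log2 scale over the 12, against 0.25 over all tested. The 12 were not matched to the rest for signal or spread, so nothing is read from this difference.

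**Figure D3:**
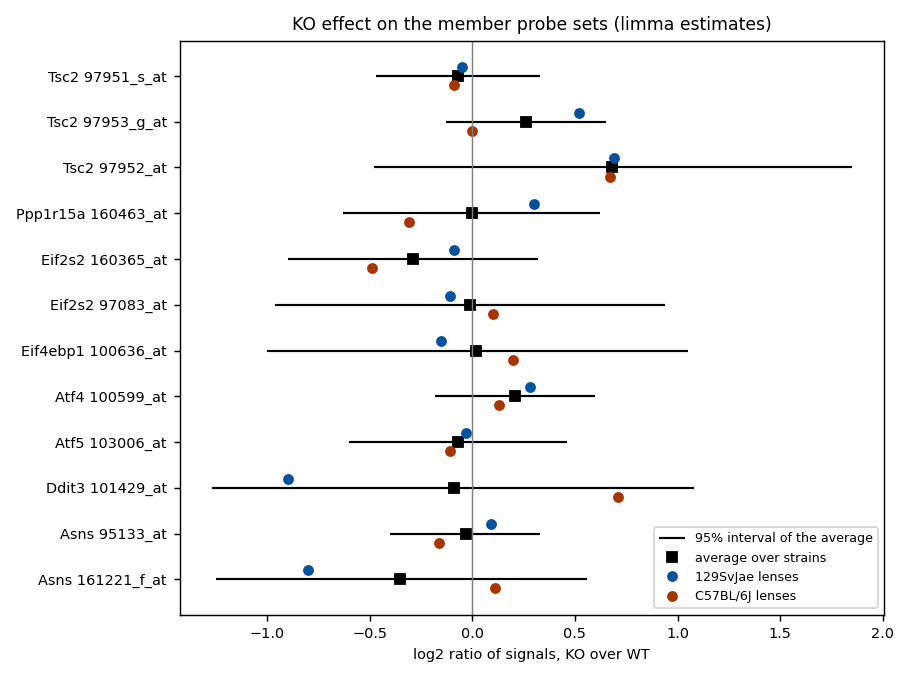
Log2 ratio of KO over WT for each of the 12 probe sets, averaged over strains, with its 95% interval, and the values in each strain. All 12 intervals include 0, and they are narrowest for the bright probe sets, from -0.40 to 0.33 for 95133_at of Asns.

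The intervals show what size of KO effect the arrays leave possible. For 97951_s_at of Tsc2 the averaged log2 ratio of KO over WT was -0.07, with a 95% interval from -0.47 to 0.33. For Ppp1r15a it was 0.00, with an interval from -0.63 to 0.62, or folds between 0.648 and 1.53. Atf4, a bright gene, gave 0.21 (-0.18 to 0.60), Atf5 -0.07 (-0.60 to 0.46) and Asns on 95133_at -0.03 (-0.40 to 0.33). The dim genes were bounded less closely, with folds between 0.415 and 2.11 for Ddit3 and between 0.501 and 2.07 for Eif4ebp1. Within the strains the KO ratios of Ddit3 had opposite signs, -0.90 in 129SvJae and 0.71 in C57BL/6J lenses, neither of which passed the test. Without KO replicate 1 of the strain they were -0.22 and 0.02, so each rests largely on 1 array.

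In 129SvJae lenses both KO arrays of 97953_g_at were above both WT arrays, with a log2 ratio of 0.52 (SE 0.26, adjusted p = 1, limma). The other bright probe set of Tsc2 gave -0.05 (SE 0.26) for the same comparison. Beside the KO comparison, the signals of 9 of 9 lens fiber markers had a KO ratio below 0, with a median log2 ratio of -0.33 against -0.02 over all tested probe sets, and 0 of them were called. Their part in the members' KO values was not tested.

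The pathways around the 8 genes were described by 6 lists of 171 other genes, of which 137 were on the chip and 128 were tested, at 1 probe set a gene. Between the strains 0 of 128 were called, against 0.367% of all tested probe sets (0.258% higher and 0.109% lower), and 12 had an unadjusted p under 0.05, 7 of them higher and 5 lower in C57BL/6J lenses. That is 9.38% of the lists against 6.98% of all tested. For the averaged KO effect 0 of 128 were called, against 0.0198% of all tested, and 2 had an unadjusted p under 0.05, or 1.56% against 3.05%.

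The mTOR pathway list had 25 tested genes, 15 with a strain ratio above 0 and 10 below, with a median log2 ratio of 0.07 against 0.01 over all tested. Sesn1, a sestrin that restrains mTORC1 when amino acids are short, had mean WT signals of 520.4 in 129SvJae and 1034 in C57BL/6J lenses, and mean KO signals of 814 and 1013. Its log2 ratio was 0.65 (SE 0.16, adjusted p = 0.17, limma). Pdpk1, the kinase that activates AKT, gave -0.49, and Rragc, a GTPase that recruits mTORC1 to the lysosome, gave -0.40. None passed the test.

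In the eIF2 cycle list, 7 of 18 tested genes had a ratio above 0 and 11 below, with a median of -0.11. Dnajc3, an inhibitor of an eIF2 kinase, gave -0.69, and Ppp1r15b, the constitutive counterpart of Ppp1r15a, gave 0.40, a value that did not pass the test. Among 14 stress response factors 9 were above 0 and 5 below, with a median of 0.12. Cebpb, a C/EBP factor that pairs with ATF4 and CHOP, had mean WT signals of 41.9 in 129SvJae and 86.8 in C57BL/6J lenses and mean KO signals of 8.5 and 82.0. Both 129SvJae means were under the level of 50, so the size of its ratio is not measured, and the gene did not pass the test (adjusted p = 0.571, limma).

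The ATF4 and CHOP targets, 38 tested genes apart from Asns itself, split into 19 above 0 and 19 below, with a median of -0.02. Gadd45a, a stress-induced growth arrest gene, had mean WT signals of 3289 ± 603 in 129SvJae and 2130 ± 450 in C57BL/6J lenses, and mean KO signals of 3420 ± 136 and 1868 ± 174 (SD, n = 2). Its log2 ratio was -0.75 (SE 0.16, adjusted p = 0.0702, limma), just short of the test's threshold. With the replicate number as a block the adjusted p was 0.0428 (limma). In no other setting that kept all arrays did the gene pass. Mthfd2, a mitochondrial folate enzyme, gave -0.61, the same sign as Asns, and Nars, the asparaginyl transfer RNA synthetase, gave 0.66, with neither passing the test.

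Endoplasmic reticulum chaperones had a ratio above 0 in 10 of 15 tested genes, with a median of 0.15. Immediate early genes, transcripts that rise within minutes of a stimulus, were above 0 in 11 of 21, with a median of 0.01. Zfp36, an immediate early gene for a protein that destabilizes messenger RNA, had mean WT signals of 64.0 in 129SvJae and 160 in C57BL/6J lenses, mean KO signals of 47.5, under the level of 50, and 191, and a log2 ratio of 1.82 (SE 0.49, adjusted p = 0.222, limma). Of the same list, Dusp1 gave 0.58 and Ier3 -1.09, and neither passed the test. The ratio of Ier3 was -2.25 in WT lenses, where the C57BL/6J mean of 17.9 was under 50, and 0.07 in KO lenses. Ppp1r15a is itself induced quickly by stress, and the part of the immediate early genes in its strain difference was not tested.

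**Figure D4:**
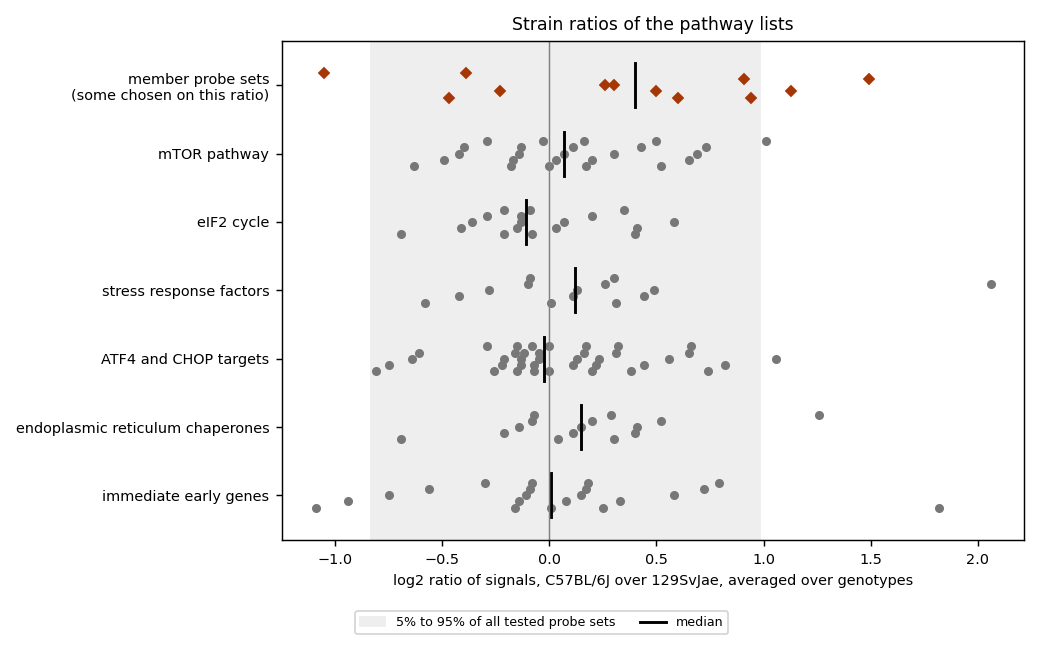
Averaged log2 ratio of C57BL/6J over 129SvJae for the 12 member probe sets and for the tested genes of the 6 lists, 1 point each, with a bar at each median and the 5% to 95% range of all tested probe sets, -0.833 to 0.985, in grey. The list medians lie between -0.11 and 0.15, and that of the members, some of which were chosen on this ratio, at 0.40. The point farthest right, Cebpb, is set against 129SvJae signals under 50.

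The marker lists of other cell types had summed signals between 144 and 1529, and 0 of their genes and of the lens markers were called between the strains. The median log2 ratio was 0.40 for the vessel markers, with 5 of 6 above 0, 0.35 for those of connective tissue, with 4 of 4 above 0, and 0.13 for those of pigment cells, with 2 of 4 above 0. It was -0.23 for the retina markers, with 2 of 9 above 0, -0.36 for those of leukocytes, with 1 of 3 above 0, and -0.35 for those of red cells, with 0 of 2 above 0. Lens fiber markers were above 0 in 8 of 9, with a median of 0.09, and those of the lens epithelium in 4 of 7, with a median of 0.01. The part of any of these cells in the members' strain ratios was not tested.

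The tested genes whose pattern over the 8 arrays was nearest to that of a member were found by the root mean square difference of log2 signals, each centred on its own mean. For 97951_s_at of Tsc2 these were Zfp617 at 0.178, Aldh1a7 at 0.188 and Kif1a at 0.196, against a median of 0.716 over all tested probe sets. The second bright probe set of Tsc2 was at 0.259 and the dim one at 0.72, no nearer than the median. For Ppp1r15a the nearest were Cdh4 at 0.23, Ethe1 at 0.388 and Ppp1r2 at 0.415, against a median of 1.027. For 160365_at of Eif2s2 they were Rtn1 at 0.177, Hars at 0.236 and 1810058I24Rik at 0.246, while the other probe set of Eif2s2 was at 0.877, farther than the median of 0.782. For Atf5 they were Nid1 at 0.149, Ndrg4 at 0.19 and Me1 at 0.208, against a median of 0.738. The distances describe these arrays only.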

How the data were processed

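RNA of pooled lenses was labeled with biotin by the authors, hybridized to MG-U74Av2 chips and summarized in Microarray Suite 5.0 (MAS5 in the submitters' processing notes). The deposited values are 1 intensity per probe set and array, scaled by the authors to a mean of 250. Detection calls and probe-level data were not used here. Signals were rescaled so that the mean without the top and bottom 2% was 250 on all arrays, 1 signal not above 0 became 1, and log2 was taken. Without the 66 control probe sets, 10078 reached the level of the methods, a mean over 50 in any group, and were tested. Precision is limited by 2 arrays per group and by the signal over background.

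One limma fit (limma 3.58.1, R 4.3.3) with 4 group means and a variance trend (4 residual and 9.17 prior degrees of freedom) gave all ratios, and Benjamini-Hochberg adjustment ran over all tested probe sets. The fit was checked on simulated signals. Arrays that share a replicate number moved together around their group means (correlations of 0.13 to 0.206 over all 6 pairs of groups), so the numbers pair the arrays, and they follow the scan session. The members and lists were chosen with earlier results of these data known. Named were all probe sets of the members and the 3 genes nearest in pattern to each of 4 members. List genes were drawn from the 3 of each list with the smallest p between the strains, and not all of these are given. List genes were measured by their brightest probe set.

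The annotation gives 1 gene symbol to 10833 of the 12422 non-control probe sets, several to 396 and none to 1193. Symbols were updated through RefSeq's gene table of GRCm38.p6, and no genome build is given for the chip in the sources used here. Other settings tried were quantile normalization, median centring, no rescaling of the deposited signals, an offset of 16 or a floor of 50 before log2, a level of 100 or none, a fit without the trend, with a robust prior or with fewer groups, blocks for the replicate number or the session, the methods' t-test on both scales, another choice of probe set for list genes, and leaving out each array.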

Additional observations from a re-analysis of the deposited data

Results flagged for a closer look

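The strain difference of Asns on the dim probe set 161221_f_at went opposite ways in the 2 genotypes. Both WT pairs of arrays had the lower signal in C57BL/6J lenses and both KO pairs the higher one, with a difference between the log2 ratios of 0.90 (SE 0.84). The interaction had an adjusted p of 1 in limma, where the lowest over all probe sets was also 1, and all signals of this probe set were between 68.9 and 158.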

How the results depend on the processing

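Under every alternative that kept all arrays, 0 of the 12 member probe sets were called for the KO effect, averaged or in either strain. For the averaged effect, 0 of all probe sets were called without a variance trend and by both t-tests. In 129SvJae lenses every such alternative but the session block also called 0 of all. Where 0 of all were called, the result says nothing about the members. The list genes called between the strains went from 0 to 1, Gadd45a, with the replicate number as a block, and from 0 to 1 over the arrays left out, with the 1 call without the library labelled 129SvJae WT replicate 1. The averaged KO ratio changed sign, at values near 0, with arrays centred on the median for 97951_s_at of Tsc2 (0.03), 97083_at of Eif2s2 (0.09), Atf5 (0.03) and 95133_at of Asns (0.07), with quantile normalization for 97083_at (0.12), and with the t-test on linear signals for 97083_at (0.06) and Eif4ebp1 (-0.07). Over the arrays left out it ran from -0.22 to 0.09 for 97951_s_at, -0.26 to 0.25 for 97083_at, -0.46 to 0.51 for Eif4ebp1, -0.30 to 0.16 for Atf5, -0.44 to 0.25 for Ddit3 and -0.14 to 0.07 for 95133_at. For Ppp1r15a, at 0.00, it ran from -0.23 to 0.14 over the other settings and from -0.30 to 0.29 over the arrays left out, and for Eif4ebp1 it was 0.57 with the session as a block. Centring on the median moved the median KO ratio of all probe sets from -0.02 to 0.08. The causes were not tested. The strain ratios of the members that separated the strains kept their sign throughout. Over the arrays left out they could not change it, because all C57BL/6J arrays lay on 1 side of all 129SvJae arrays. Nothing is read from the kept sign. The ratios ran from 0.79 to 1.10 for 97951_s_at and from 1.19 to 1.78 for Ppp1r15a over the arrays left out. Blocked on the scan session, the strain ratio was 1.04 for Eif4ebp1 and 0.42 for Atf4. The session of 129SvJae WT replicate 2 held no other array, so this block in effect left that array out. The 129SvJae WT values then rest on replicate 1, whose Gja3 and Prm1 signals lay between the other WT arrays and the KO arrays. With 129SvJae WT replicate 2 left out and no block, the strain ratios were 0.98 and 0.46. All other values with the session as a block carry the same limit. Over all probe sets the strain calls went from 37 to 1 without a variance trend, 19 with arrays centred on the median, 20 and 21 by the t-tests, 58 with the replicate block and 86 with the session as a block, with 18 to 51 over the arrays left out. KO calls over all probe sets lay between 0 and 3, averaged or by strain. Signals near 50 and 2 arrays per group limit Ddit3, Eif4ebp1 and the dim probe sets.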
